A study of Mus musculus with 26 samples.

Results

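The genes described here encode the proteins that place, remove and read N6-methyladenosine (m6A), the most common internal modification of mRNA. They were chosen by gene symbol, with earlier results of these data known but with no measured value in the rule: the writers Mettl3, Mettl14, Wtap and Virma, the erasers Alkbh5 and Fto, and the readers Ythdf1, Ythdf2, Ythdf3 and Ythdc1. All 10 were listed in oligodendrocytes (OLs), with 1 transcript each among 9751, and 9 of them were listed in oligodendrocyte progenitor cells (OPCs), among 8530. Ythdc1 was listed for OLs only, so 9 genes could be compared among the 8177 transcripts listed for both cell types, and these 9 also had a half-life in all 5 replicates.

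m6A is written in the nucleus by a complex whose catalytic subunit is METTL3, and it is removed by the demethylases ALKBH5 and FTO. Proteins with a YTH domain bind the methylated base. In the cytoplasm the YTHDF proteins, YTHDF2 above all, speed the decay of the mRNAs they bind, and in the nucleus YTHDC1 acts on splicing and export. Loss of METTL14 in the oligodendrocyte lineage is known to impair oligodendrocyte maturation and myelination. The mRNAs of these genes are themselves subject to decay, and that decay is what was measured.

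The cells were mouse OPCs derived from epiblast stem cells of the 129S/SvEv strain and OLs made from such OPCs, with no genetic change named for either. OPCs were kept in medium with bFGF and PDGFA, and OLs were differentiated in medium with T3, noggin, IGF-1, cyclic AMP and NT3. Cells of both types took up 5-ethynyluridine (5-EU), a uridine analogue to which biotin can be coupled, for 24 h, after which uridine was supplied in its place. RNA was collected at 0, 1, 2, 4 and 6 h of this chase, and the labelled RNA was captured through biotin and sequenced, in 3 OPC replicates (15 libraries) and 2 OL replicates (10 libraries). The study asked whether mRNA stability differs between the cell types, and no genotype or treatment other than differentiation separates the groups. The OLs came from a pair of the OPC replicates, without a statement of which, and per the study the OL cultures retain some undifferentiated OPCs. A further OPC library made without biotin was not analysed here, so RNA bound to the beads without label was not subtracted.

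The most common form of the sequence that the writer complex recognises is GGACT in DNA letters, with methylation at the A. The transcripts of 6 of the 10 genes held this motif in their own 3′ untranslated region (3′ UTR), and the first match after the stop codon is shown for each, as the letters of the mark in the mRNAs of its own pathway. The sequences come from the GRCm38 genome with GENCODE annotation and read 5′ to 3′ on the transcript strand, with the motif in capitals.
Mettl3: caccttaagaGGACTgtttacgcaa
Mettl14: cccaccccagGGACTggcagttgtc
Wtap: tgtgggtttaGGACTgccaggtttg
Alkbh5: tgccctcttgGGACTctggctaatc
Fto: gagagagcatGGACTccgatttcaa
Ythdf2: aagaaaattaGGACTttttttctta
The motif was searched on the transcript strand only, and 65% of the 9593 listed 3′ UTRs of at least 100 bases held it, so that its presence does not set these genes apart. Alkbh5 held 8 matches in a 3′ UTR of 4097 bases, Ythdf2 held 3, Wtap and Fto held 2 each, and Mettl3 and Mettl14 held 1 each. The Mettl3 match lay 60 bases after the stop codon in a 3′ UTR of 141 bases, shorter than that of all but 7.18% of listed transcripts. No methylation was measured in these data.

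The cell types were checked against their markers at 0 h. FPKM is the number of fragments per kilobase of transcript, scaled to the library. Myelin and OL markers were listed for 7 of 7 genes in OLs, with summed levels of 2786 to 6053 FPKM, and for 2 of 7 in OPCs, at 37.6 to 55.1 FPKM. OPC markers were listed for 5 of 5 genes in both, and their sum was higher in OLs (536 to 558 FPKM) than in OPCs (198 to 327 FPKM). Gpr17 made up most of that difference, at 299 to 323 FPKM in OLs and 5.00 to 6.61 FPKM in OPCs, and the sums of the other 4 overlapped (234 to 236 FPKM and 192 to 322 FPKM). Of these 4, Pdgfra (43.9 to 66.9 FPKM in OLs, 11.5 to 26.5 FPKM in OPCs) and Lhfpl3 were higher in every OL replicate, Cspg4 was lower (29.9 to 30.7 FPKM in OLs, 35.7 to 55.7 FPKM in OPCs), and Ptprz1 overlapped. Astrocyte markers were listed for 2 of 5 genes in OPCs (202 to 249 FPKM) and 4 of 5 in OLs (181 to 261 FPKM), and Aqp4 was in neither. Slc1a3 was the lower in OLs (95.5 to 155 FPKM, against 179 to 224 FPKM) and Slc1a2 the higher (77.4 to 95.7 FPKM, against 22.9 to 37.0 FPKM). The lineage markers Olig1, Olig2 and Sox10 were listed in both, with sums of 1350 to 1412 FPKM in OPCs and 785 to 964 FPKM in OLs, and Sox10 alone of the 3 was higher in OLs. Neuronal markers were listed for 1 of 5 in OPCs and 2 of 5 in OLs, and microglial markers for 0 of 5 in both. The part of these other cells, and of OPCs left in OL cultures, in the results that follow was not tested. How many reads lie behind a value is unknown.

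The level of labelled RNA at 0 h is that reached after 24 h of labelling. It is given in FPKM and is not read as an absolute amount per cell. Mettl3 was lower in OLs than in OPCs, whereas Fto and Ythdf3 were higher, and the other 6 genes did not pass the test (limma on log2(FPKM + 1), Benjamini-Hochberg adjustment over all 8177 transcripts). Of the 9 genes, 2 were thus called higher and 1 lower, against 14.1% of all transcripts called higher and 17.5% called lower. The median log2 difference was 0.00 over the 9 genes and -0.01 over all transcripts. In bulk samples, fewer cells of a type and less RNA per cell cannot be told apart.

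Among the writers, Mettl3 encodes the methyltransferase itself (chr14:52294841-52305128, minus strand, GRCm38). Its level was 26.5, 21.2 and 24.0 FPKM in OPC replicates 1, 2 and 3 and 10.1 and 12.6 FPKM in OL replicates 1 and 2. Both OL values lay below every OPC value, and the fitted difference was -1.01 ± 0.24 on the log2 scale (SE), a 2.02-fold lower level in OLs (adjusted p = 0.0116). The Mettl3 transcript shares 366 bases, 18.1% of its length, with exons of Tox4 on the opposite strand, and the counting is not stated to use strand, so reads in that stretch cannot be assigned to either gene with certainty. Tox4 was at 24.3, 22.2 and 21.6 FPKM in OPCs and 21.14 and 24.96 FPKM in OLs and did not pass the test (log2 difference 0.02 ± 0.21, SE, adjusted p = 0.963).

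Mettl14 encodes the partner that binds RNA beside METTL3 (chr3:123368297-123386108, minus strand). It was the least abundant of the 9 genes listed in OPCs and of the 10 in OLs, at 2.00, 8.71 and 4.72 FPKM in OPCs and 9.84 and 10.2 FPKM in OLs. The OL values lay above all OPC values, but the OPC replicates were far apart and the difference of 1.00 ± 0.45 (log2, SE) did not pass (adjusted p = 0.114). Without OPC replicate 2, the highest of the progenitor values, it was 1.41 and passed (adjusted p = 0.0194), and without OPC replicate 1, the lowest, it was 0.57 and did not (adjusted p = 0.19997). Mettl3 and Mettl14, which act as a heterodimer, thus stood 4.64-fold apart in mean level in OPCs (23.9 ± 2.65 against 5.14 ± 3.37 FPKM, SD, n = 3) and 1.13-fold apart in OLs (11.3 ± 1.76 against 10.0 ± 0.269 FPKM, SD, n = 2), where their ranges overlapped. The ratio was uneven between the OPC replicates, at 13.2, 2.43 and 5.08, and that of the means was 7.51 without OPC replicate 2 and 3.36 without OPC replicate 1. In OLs it was 1.02 and 1.23.

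The scaffold subunits of the writer complex showed no called difference. Wtap, which holds the heterodimer in nuclear speckles (chr17:12966799-12992259, minus strand), was at 21.2, 28.7 and 24.8 FPKM in OPCs and 29.89 and 29.98 FPKM in OLs. Both OL values were the higher, by 0.27 ± 0.22 on the log2 scale (adjusted p = 0.371). Virma, which directs methylation towards the 3′ end of mRNAs (chr4:11486043-11550684, plus strand), had the same mean in both, 24.5 ± 1.99 FPKM in OPCs (SD, n = 3) and 24.6 ± 2.35 FPKM in OLs (SD, n = 2), with overlapping ranges.

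The erasers differed from each other. Fto, which demethylates m6A and the cap-adjacent m6Am (chr8:91313525-91668439, plus strand), was at 16.3, 17.3 and 19.4 FPKM in OPCs and 31.9 and 31.6 FPKM in OLs. The groups did not overlap, and the difference was 0.81 ± 0.21 on the log2 scale, 1.76-fold higher in OLs (adjusted p = 0.0182). Its transcript shares 144 bases, 4.04% of its length, with the antisense gene 4831440D22Rik, and reads there cannot be assigned with certainty. Alkbh5, the eraser specific to m6A (chr11:60537978-60558512, plus strand), was the most abundant of the 9 genes in OPCs, at 50.1, 54.5 and 50.7 FPKM, and stood at 42.7 and 47.1 FPKM in OLs. Its OL values lay just under its OPC values, and the difference of -0.20 ± 0.18 (log2, SE) did not pass (adjusted p = 0.409).

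Among the cytoplasmic readers, Ythdf3, which acts together with the other 2 YTHDF proteins (chr3:16183212-16217037, plus strand), was at 25.9, 51.7 and 39.1 FPKM in OPCs and 67.9 and 68.9 FPKM in OLs. The OL values were above all OPC values, with a difference of 0.85 ± 0.27 (log2, SE), 1.80-fold higher in OLs (adjusted p = 0.0378). Ythdf1 (chr2:180904377-180920949, minus strand) and Ythdf2 (chr4:132184912-132212303, minus strand), readers linked to translation and to mRNA decay, had overlapping ranges and log2 differences of -0.04 ± 0.20 (adjusted p = 0.908) and -0.18 ± 0.21 (adjusted p = 0.543). The 3 paralogs are told apart by sequence: at most 0.189% of the windows of 18 bases in 1 of them, and 0% of the windows of 30 bases, were shared with another. The nuclear reader Ythdc1 (chr5:86804564-86836657, plus strand) was at 17.3 and 29.8 FPKM in OLs. It shares 631 bases, 21.3% of its length, with the long noncoding RNA Gm43055 on the same strand.

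In order of mean level in OPCs the genes were Alkbh5, Ythdf2, Ythdf3, Ythdf1, Wtap, Virma, Mettl3, Fto and Mettl14. Neighbours in this order overlapped from Ythdf2 to Ythdf1 and from Wtap to Mettl3, and the range of Ythdf3 was wide enough to overlap Alkbh5, Wtap, Virma and Mettl3 as well. In OLs the order was Ythdf3, Alkbh5, Ythdf1, Ythdf2, Fto, Wtap, Virma, Ythdc1, Mettl3 and Mettl14, and the neighbours that overlapped were Ythdf1 with Ythdf2, Virma with Ythdc1, and Mettl3 with Mettl14. Fto moved from the 46.3 to 52.1 percentile of all OPC transcripts to the 71.8 to 73.0 percentile of OL transcripts, and Mettl3 from the 54.4 to 63.1 percentile to the 35.8 to 39.1 percentile. The groups did not overlap for 4 genes with OLs above (Fto, Mettl14, Wtap and Ythdf3) and for 2 with OLs below (Alkbh5 and Mettl3), against 28% and 31.4% of all transcripts.

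**Figure D1:**
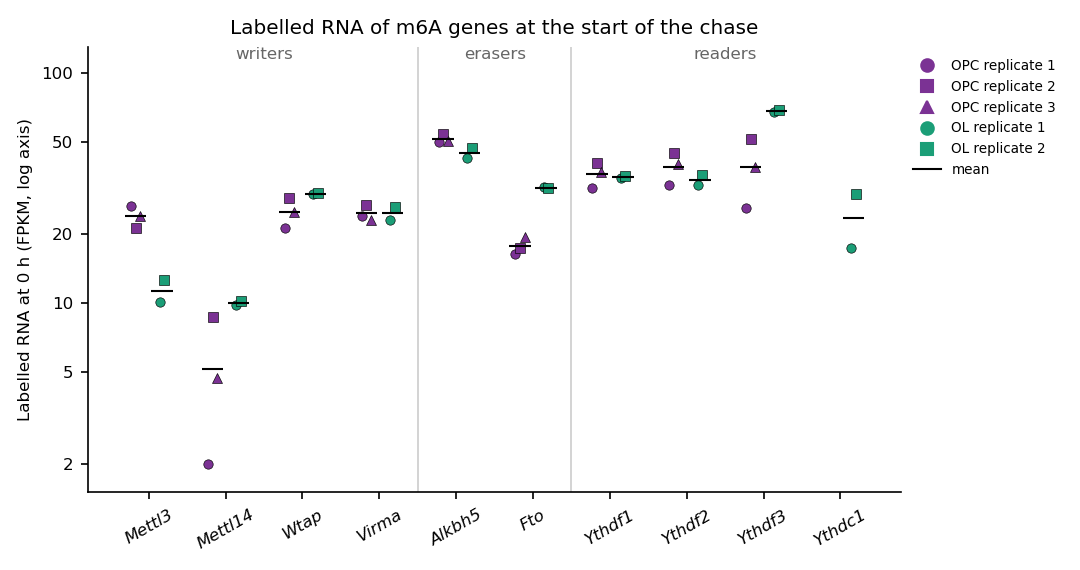
Labelled RNA of the 10 genes at 0 h of the chase in FPKM on a log axis, with a point for each replicate (3 OPC, 2 OL) and a bar at the mean. The Mettl3 values in OLs sit below all OPC values, and those of Fto and Ythdf3 sit above.

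These level calls rest on few libraries. Without OPC replicate 3, 0 of 9 genes passed (limma, adjusted p of 0.0580 for Mettl3, 0.0581 for Fto and 0.0952 for Ythdf3), with log2 differences of -1.01, 0.88 and 0.88. How many of all transcripts passed in that reduced fit was not counted, so a general loss of calls cannot be told apart. Without OL replicate 1 or OL replicate 2, which leaves 1 OL library, the log2 differences were -0.87 and -1.16 for Mettl3. They were 0.81 and 0.82 for Fto and 0.86 and 0.84 for Ythdf3. The direction of all 3 differences was the same under every alternative run.

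The decline over the chase was read from levels that the authors had scaled to labelled spike-in RNA, which sets 1 factor per library. Each of the 10 genes fell wherever it was listed: 9 of 9 in OPCs, where 81.7% of all transcripts fell, and 10 of 10 in OLs, where 65.1% fell (limma, slope of log2(FPKM + 1) over chase time). Slopes are given in log2 units per h. The median slope was -0.52 over the 9 genes and -0.38 over all transcripts in OPCs, and -0.39 over the 10 genes and -0.20 over all transcripts in OLs.

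Mettl3 had the steepest slope of the 9 genes in OPCs, -0.72 ± 0.09 (SE, adjusted p = 1.78e-07), which was -1.16 with a pseudocount of 0.1. Without the 6 h libraries Ythdf1 had the steepest slope, -1.01 against -0.93 for Mettl3. The Mettl3 level was listed at 40.5%, 45.3%, 15.2% and 0% of the 0 h level at 1, 2, 4 and 6 h in OPC replicate 1, at 66.2%, 58.8%, 0% and 0% in replicate 2 and at 55.0%, 26.7%, 0.625% and 12.6% in replicate 3. In OLs the Mettl3 series were 43.1%, 73.4%, 31.9% and 19.5% in replicate 1 and 74.2%, 80.9%, 39.9% and 24.6% in replicate 2, and the slope was -0.28 ± 0.06 (adjusted p = 9.13e-04). From 2 h on, both OL replicates kept more of their Mettl3 RNA than any OPC replicate. The OPC zeros are listed values in libraries where 14.8% to 21.6% of all transcripts were listed at 0, and they need not mean that the RNA was gone.

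Mettl14 fell in OPCs with a slope of -0.34 ± 0.07 and in OLs with one of -0.48 ± 0.08. With a pseudocount of 0.1 these slopes were -0.68 and -0.80, and the OPC slope was -0.59 without the 6 h libraries and -0.21 without OPC replicate 2. Its values in OPCs were low and uneven, at 28.8%, 0% and 44.8% of the 0 h level at 6 h in replicates 1, 2 and 3, and at 0% and 19.1% in the OL replicates. Wtap fell early and far in both cell types. At 4 h its level was 6.26%, 6.45% and 8.20% of the 0 h level in OPCs and 4.65% and 12.9% in OLs, and the slopes were -0.53 ± 0.07 and -0.49 ± 0.09. Virma held longer at first, with 53.0%, 80.9% and 89.0% left at 2 h in OPCs and 49.7% and 57.0% in OLs, and had slopes of -0.52 ± 0.06 and -0.35 ± 0.05.

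The erasers differed in how much was left at 6 h. Alkbh5 fell in OPCs to 13.0%, 5.00% and 11.7% of its 0 h level at 6 h and in OLs to 15.8% and 17.8%, with slopes of -0.58 ± 0.05 and -0.37 ± 0.05. Fto kept 42.7%, 30.6% and 42.5% at 6 h in OPCs and 35.1% and 30.2% in OLs, more than any other of the 9 genes in OPC replicates 1 and 2, and its slope of -0.22 was the shallowest in both cell types (SE 0.04 in OPCs and 0.05 in OLs). Without the 6 h libraries its slope in OLs was -0.11 and did not pass (adjusted p = 0.218). Only Fto reversed its direction when each library was set to its 0 h median, which takes out the decline shared by all transcripts: its slope was then 0.27 ± 0.04 in OPCs (adjusted p = 2.76e-05), where 33.5% of all transcripts rose on that scale, and 0.03 ± 0.04 in OLs (adjusted p = 0.572). On that scale Mettl3 (-0.61 ± 0.15, adjusted p = 0.00163) and Alkbh5 (-0.12 ± 0.05, adjusted p = 0.0463) fell faster than the median transcript in OPCs, and 7 of 10 genes did so in OLs, all but Mettl3, Fto and Ythdc1. Of all transcripts, 24.7% fell on that scale in OPCs and 15% in OLs.

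The YTHDF readers had slopes close to one another. In OPCs the slopes were -0.64 ± 0.09 for Ythdf1, -0.48 ± 0.08 for Ythdf2 and -0.50 ± 0.06 for Ythdf3, and in OLs they were -0.40 ± 0.05, -0.41 ± 0.07 and -0.45 ± 0.05. At 6 h the 3 genes kept 7.30% to 19.0% of their 0 h level in the OPC replicates and 10.3% to 21.3% in the OL replicates. Ythdc1 had a slope of -0.28 ± 0.09 in OLs (adjusted p = 0.0101), and its replicates parted at 4 h, at 18.6% and 48.4%. Without OL replicate 1 its slope did not pass (-0.21, adjusted p = 0.0938).

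**Figure D2:**
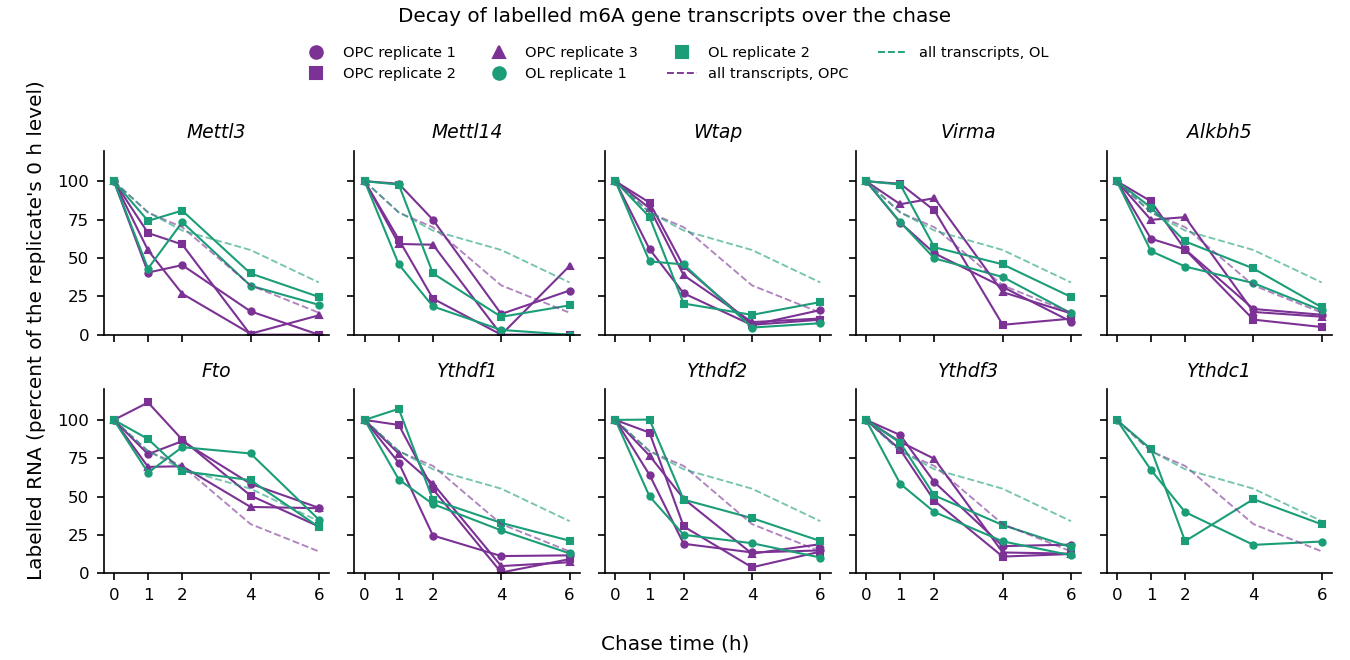
Labelled RNA of each gene as a percent of the 0 h level of its own replicate against chase time in h, with a line for each replicate; dashed lines are the median of all listed transcripts, averaged over the replicates of a cell type. At 4 h the mean over the replicates lies under the dashed line for 8 of 9 genes in OPCs and 9 of 10 in OLs, with Fto as the exception in both, whereas at 1 and at 6 h it does for 5 of 9 in OPCs and for 8 and 10 of 10 in OLs.

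The deposited half-lives, 1 per replicate and fitted by the authors as an exponential decay with a ceiling of 6 h, placed most of these mRNAs among the less stable. The median over the genes was 1.55, 1.85 and 1.96 h in OPC replicates 1, 2 and 3 (9 genes) and 1.68 and 2.73 h in OL replicates 1 and 2 (10 genes), against 2.33, 2.05 and 2.79 h and 4.15 and 4.05 h over all transcripts. Half-lives below the median of their replicate were held by 6, 8 and 8 of 9 genes in OPCs and by 9 and 10 of 10 in OLs. The rank of a half-life within its replicate was also read, since a shared factor error moves all transcripts together. The median rank of the genes was the 28.5, 20.0 and 29.4 percentile in OPCs and the 18.9 and 30.3 percentile in OLs. The 29.4 percentile is that of Alkbh5 in OPC replicate 3, whose half-life is a value that many transcripts share, so its rank there is known only to within the 27.3 to 34.7 percentile.

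Wtap had the lowest median half-life over the 5 replicates (1.36 h), with 1.06, 1.72 and 1.46 h in OPCs and 0.938 and 1.36 h in OLs. Its rank was the 12.3, 17.8 and 16.6 percentile in OPCs and the 4.74 and 3.98 percentile in OLs, so that both OL ranks lay below all OPC ranks, as for 27.9% of all transcripts. That share includes transcripts at the ceiling of 6 h in all 5 replicates. Their tied rank is lower in OLs (80.1 and 82.0 percentile) than in OPCs (87.8, 87.5 and 84.4 percentile) with no change in half-life. Mettl3 had half-lives of 1.47, 1.68 and 1.05 h in OPCs and 2.54 and 3.02 h in OLs. It was the only one of the 9 genes whose groups did not overlap, with OLs above, against 35.9% of all transcripts with OLs above and 2.01% with OLs below. Its rank was the 26.3, 17.4 and 6.64 percentile in OPCs and the 30.4 and 35.6 percentile in OLs, and both OL ranks lay above all OPC ranks, as for 18.1% of all transcripts. The ranks of the other 7 genes overlapped.

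Mettl14 gave 3.34, 0.958 and 2.60 h in OPCs and 0.819 and 1.51 h in OLs, and its OPC values ranged from below to above the OL value of replicate 2. Virma was more even, at 2.19, 1.96 and 2.16 h in OPCs and 2.12 and 2.97 h in OLs. Fto had the longest half-life of the 9 genes in every replicate, 5.16, 4.08 and 3.86 h in OPCs, and in OLs the ceiling of 6 h in replicate 1 and 3.47 h in replicate 2. Alkbh5 gave 1.55, 1.96 and 1.96 h in OPCs and 1.71 and 2.78 h in OLs.

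The YTHDF readers had half-lives between 1.17 and 2.49 h in OPCs and between 1.01 and 2.67 h in OLs. Ythdf2, the reader that recruits the deadenylase, was itself short-lived, at 1.39, 1.17 and 1.92 h in OPCs and 1.01 and 2.67 h in OLs. Ythdc1 had 1.65 and 3.65 h in OLs. The value of 1.96 h for Alkbh5 and Ythdf1 in OPC replicates 2 and 3 and for Virma in replicate 2 is shared with many transcripts (25.6% of those in OPC replicate 2). It is the value that a fit by least absolute deviations returns whenever the levels at 1 and 2 h lie above the curve and those at 4 and 6 h below it, whatever their distance, which was the case for all 2174 transcripts with it in that replicate. Their ranks run from the 21.8 to the 47.4 percentile, and the order within that stretch carries no information.

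**Figure D3:**
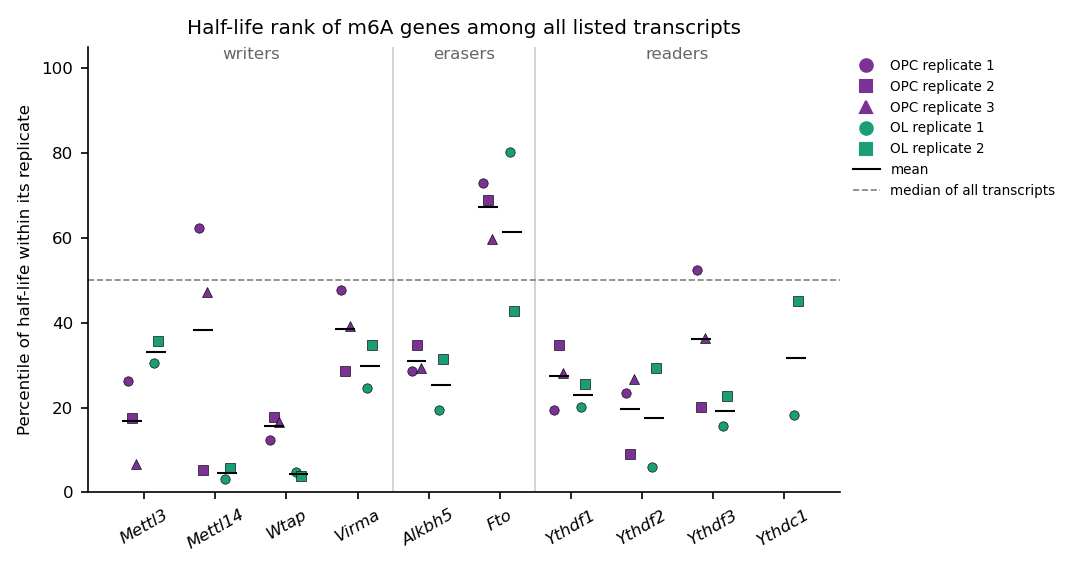
Percentile of each gene's half-life among all transcripts of the same replicate, with a point for each replicate (3 OPC, 2 OL), a bar at the mean and a dashed line at the median transcript. Most points lie under the line, Fto lies above it in all replicates but OL replicate 2, and Wtap sits at the 4.74 and 3.98 percentile in OLs. Points at the shared value of 1.96 h (Alkbh5 and Ythdf1 in OPC replicates 2 and 3, Virma in replicate 2) have no exact rank.

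Stability was compared between the cell types on the half-lives and on the slopes. On log2 half-lives 0 of 9 genes passed (limma, adjustment over 8112 transcripts), against 3.39% of all transcripts called longer and 0.148% called shorter in OLs. At an unadjusted p under 0.05 there was 1 gene, Mettl3, against 23% of all transcripts. The Mettl3 difference was 1.01 ± 0.26 on the log2 scale (SE), a 2.01-fold longer half-life in OLs (limma, adjusted p = 0.144), and it was 0.11 after each replicate was centred on its median half-life, which takes out the shift of 0.90 between the replicate medians. The median difference was 0.16 over the 9 genes and 0.37 over all transcripts. Once centred, the difference was negative for 8 of the 9 genes, from -0.60 for Ythdf1 to -1.77 for Mettl14, with Mettl3 as the exception, and 0 of 9 passed (adjusted p of 0.0509 to 0.861). The shift of 0.90 exceeds the median difference of 0.37 over all transcripts, so the median transcript is negative once centred as well. A negative sign therefore does not set these genes apart.

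The slopes were compared over more libraries, but the time points of a replicate were treated as independent samples. The p-values of that test therefore do not measure the spread of slopes between replicates. Mettl3 and Alkbh5 fell less steeply in OLs than in OPCs, and the other 7 genes did not pass (limma, cell type by time interaction over 25 libraries and 8177 transcripts). These 2 of 9 genes compare with 27.5% of all transcripts called shallower and 0.232% called steeper in OLs, and the median difference was 0.08 log2 units per h over the 9 genes and 0.14 over all transcripts. For Mettl3 the slopes were -0.74, -0.87 and -0.55 in OPCs, replicates 1 to 3, against -0.28 and -0.29 in OLs, with a difference of 0.43 ± 0.13 (SE, adjusted p = 0.0113). That difference was 0.82 with a pseudocount of 0.1 and 0.66 without the 6 h libraries, and it passed in both cases (adjusted p of 0.0129 and 0.0139). For Alkbh5 they were -0.49, -0.72 and -0.54 in OPCs and -0.37 and -0.38 in OLs, with a difference of 0.21 ± 0.08 (adjusted p = 0.0381), and of 0.36 without the 6 h libraries (0.0278). The replicate slopes did not overlap, with OLs above, for 4 of 9 genes (Mettl3, Alkbh5, Virma and Ythdf1), against 50.9% of all transcripts, and with OLs below for 0, against 3.27%. Tox4, which overlaps Mettl3 on the other strand, had a difference of 0.18 ± 0.07 (adjusted p = 0.0510).

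With each library set to its 0 h median, the difference for Mettl3 was 0.52 ± 0.20 (adjusted p = 0.0434), a call made in that direction for 8.78% of all transcripts, and that for Alkbh5 was -0.03 ± 0.07 (adjusted p = 0.801). On the same scale Fto was called steeper in OLs (-0.25 ± 0.06, adjusted p = 0.00243), as were 21.4% of all transcripts, whereas on the spike-in scale its difference was -5.94e-04 ± 0.06 (adjusted p = 0.995). Without OL replicate 1 or OL replicate 2, which leaves OLs with 1 series, neither Mettl3 (adjusted p of 0.0974 and 0.0838) nor Alkbh5 (0.166 and 0.150) passed, and without OPC replicate 2 Alkbh5 did not (0.212). Without the 6 h libraries Ythdf1 passed as well (adjusted p = 0.0163).

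**Figure D4:**
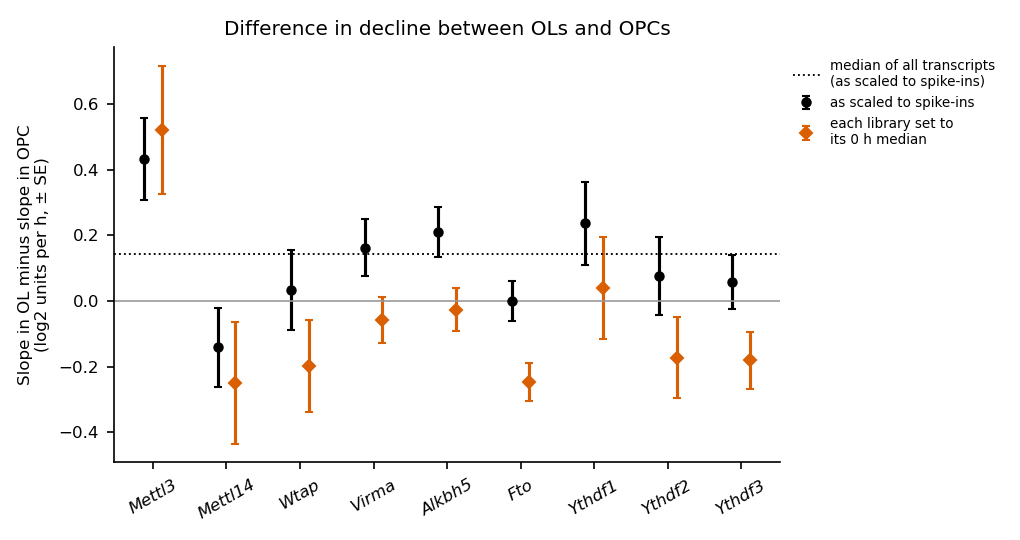
Slope over the chase in OLs minus that in OPCs, in log2 units per h with its SE, for the 9 genes listed for both cell types, on the spike-in scale (circles) and with each library set to its 0 h median (diamonds); the dotted line is the median of all transcripts on the spike-in scale. Mettl3 is above zero on both scales, Fto is near zero on the first and at -0.25 on the second, and Wtap, Virma, Alkbh5, Ythdf2 and Ythdf3 lie above zero on the first and below it on the second.

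A value that needs no fit is the share of the 0 h level left at 6 h. It was higher in both OL replicates than in all OPC replicates for Mettl3, Virma, Alkbh5 and Ythdf1, 4 of 9 genes against 48.9% of all transcripts, and lower without overlap for 0 of 9, against 2.86%. Without OL replicate 1, OPC replicate 2 or OL replicate 2, the number lower without overlap was 1, 2 and 3 of 9, against 7.58%, 5.54% and 8.13% of all transcripts. Virma kept 10.96 ± 2.69% in OPCs (SD, n = 3) and 19.3 ± 7.51% in OLs (SD, n = 2), and Ythdf1 kept 9.45 ± 2.23% and 17.2 ± 5.83%, for which the exact permutation test (two-sided) gave 0.1 each, its lower limit at 3 against 2 replicates. For Mettl3 and Alkbh5, whose values are given above, the exact p was 0.2. Ythdf2 (16.1 ± 2.60% against 15.7 ± 7.62%) and Ythdf3 (14.8 ± 3.48% against 14.4 ± 3.67%) differed between the cell types by less than the spread between replicates (exact p of 1 for each). The median share over the 9 genes was 14.99%, 9.77% and 12.9% in OPCs and 13.1% and 21.2% in OLs, against 14.4%, 10.98% and 17.7% and 31.5% and 36.6% over all transcripts. With each share divided by the median of its library, the differences were -23.3, -19.1 and -20.6 percentage points of that median for Virma, Alkbh5 and Ythdf1, and 37.5 points for Mettl3 (exact p of 0.3 to 0.4). On that scale the difference was -173 points for Fto and -68.3 points for Ythdf2 (exact p of 0.1 for each), -63.8 for Ythdf3 and -46.2 for Wtap (exact p of 0.2 for each), and -123 for Mettl14 (exact p of 0.4).

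The rest of the m6A pathway was read from a list of 20 other genes, of which 14 were listed for both cell types, Zc3h13 and Zcchc4 for OLs only, and Mettl5, Igf2bp1, Fmr1 and Cnot1 for neither. At 0 h, 1 of the 14 was higher and 1 lower in OLs, against 14.1% and 17.5% of all transcripts. Ythdc2, a YTH reader with a helicase domain, was at 1.99, 6.63 and 4.31 FPKM in OPCs and 10.6 and 9.99 FPKM in OLs (2.28-fold higher, adjusted p = 0.0445). Rbm15b, which helps guide the writer complex to its targets, was at 34.8, 34.0 and 35.9 FPKM in OPCs and 19.1 and 21.2 FPKM in OLs (1.70-fold lower, adjusted p = 0.0169). Neither passed without OPC replicate 3, OL replicate 1 or OL replicate 2 (adjusted p of 0.0988, 0.1998 and 0.165 for Ythdc2 and 0.0872, 0.111 and 0.0607 for Rbm15b), and Ythdc2 did not pass without OPC replicate 1 (0.0552), with a pseudocount of 0.1 (0.0550) or with a mean of at least 5 FPKM required (0.0501) either. With the replicate number as a block Rbm15b had an adjusted p of 0.0797.

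In OPCs 11 of the 14 fell over the chase, against 81.7% of all transcripts, with slopes from -0.20 (Trmt112) to -0.69 (Igf2bp3), and Hnrnpa2b1, a nuclear RNA-binding protein proposed as a reader, rose (0.15 ± 0.04 log2 units per h, adjusted p = 0.00337, and 0.0502 without OPC replicate 3), as did 4.92% of all transcripts. In OLs 11 of 16 fell, against 65.1% of all transcripts, and 1 rose, Rida, a partner of YTHDF2 in endonucleolytic decay (0.21 ± 0.08, adjusted p = 0.0258, 0.0861 without OL replicate 1 and 0.656 without the 6 h libraries), against 1.03% of all transcripts. The genes that fell in both were Igf2bp2 and Igf2bp3, the methyltransferases Mettl16 and Pcif1, Rbm15, Rbm15b and Cbll1 of the writer complex, Ythdc2 and Upf1. Prrc2a and Trmt112 fell in OPCs, and Zc3h13 and Zcchc4 fell in OLs, the cell type for which they were listed. With each library set to its 0 h median, 3 of 14 fell and 4 rose in OPCs, against 24.7% and 33.5% of all transcripts, and 3 of 16 fell and 5 rose in OLs, against 15% and 27.9%. Among the genes that fell in OLs, Mettl16 did not pass without OL replicate 1 (adjusted p = 0.0569), Upf1, Zc3h13 and Zcchc4 did not without OL replicate 2 (0.0848, 0.330 and 0.0702), and Igf2bp3, Mettl16, Pcif1, Upf1 and Zc3h13 did not without the 6 h libraries (0.0714 to 0.484). Trmt112 did not pass in OPCs without the 6 h libraries (0.197). With each library set to its 0 h median its OPC slope was called as a rise (0.30, limma, adjusted p = 8.57e-05). The others called as rising there were Hnrnpa2b1, Hnrnpc and Rida. The slope was shallower in OLs for 5 of 14 and steeper for 0, against 27.5% and 0.232% of all transcripts. The 5 were Prrc2a, a reader studied in the oligodendrocyte lineage (difference 0.35 ± 0.09, adjusted p = 0.00485), Igf2bp3, a reader that protects its targets (0.39 ± 0.12, 0.0204), Pcif1, the enzyme that writes m6Am next to the cap (0.38 ± 0.08, 0.00134), Rbm15b (0.20 ± 0.07, 0.0350) and Upf1, the helicase of nonsense-mediated decay (0.36 ± 0.09, 0.00558). With each library set to its 0 h median Rbm15b changed sign (-0.04), and Prrc2a and Pcif1 kept theirs with smaller differences, 0.16 and 0.20, that did not pass (adjusted p of 0.203 and 0.0552). On that scale Igf2bp3 and Upf1 were called shallower in OLs and 3 others (Cbll1, Hnrnpa2b1 and Hnrnpc) steeper, against 8.78% and 21.4% of all transcripts. With a pseudocount of 0.1 the difference was 0.82 for Igf2bp3 and 0.62 for Upf1. Without OL replicate 1 only Pcif1 of the 5 still passed, without OL replicate 2 Igf2bp3 and Rbm15b did not (0.115 and 0.0768), without OPC replicate 2 the same pair did not (0.0890 and 0.138), without OPC replicate 3 Rbm15b did not (0.0528), and without the 6 h libraries Igf2bp3 and Rbm15b did not (0.226 and 0.0651). On half-lives 0 of 14 passed with limma, against 3.39% of all transcripts called longer and 0.148% called shorter, and 5 had an unadjusted p under 0.05, against 23%.

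The study's question concerned the codons for phenylalanine and lysine, and the genes differed widely in them. UUU made up 9.09% of the phenylalanine codons UUU and UUC in Alkbh5, the 4.55 percentile of all listed transcripts, but 80% in Ythdf3 and 82.4% in Ythdc1, the 96.7 and 97.4 percentiles. The others lay between 44.4% (Fto, the median of all transcripts) and 70.6% (Mettl14). AAA made up 60% of the lysine codons AAA and AAG in Wtap (91.2 percentile) and 24% in Alkbh5 (22.8 percentile).

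The 3′ UTRs also differed in the AU-rich pentamer ATTTA, which was found in 72.3% of the listed 3′ UTRs of at least 100 bases. It was present in 9 of the 10 genes, with 10 matches in Ythdf3 and 6 in Virma (6.09 per kb, the 96.4 percentile), and absent from the short 3′ UTR of Mettl3. The motif TGTANATA, known as the recognition sequence of Pumilio proteins and present in 27.7% of 3′ UTRs, was found in Mettl3, Virma, Alkbh5 and Ythdc1. The Mettl3 match lay 90 bases after the stop codon and is shown because Mettl3 is one of the genes whose decline differed between the cell types.
Mettl3: ccctacccTGTATATAaataaataa
A match is a description of the sequence and not a site of binding.

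The transcripts with the most similar course were sought for 1 gene of each role, over the 25 libraries, with log2(FPKM + 1) centred on the median of each library. These libraries share their cell type, their time points and their replicates, so the correlations are given as a description. The closest to Mettl3 were Sf3a2 (Pearson's r = 0.83), Fzr1 (0.82) and Ppp1r8 (0.82). The closest to Alkbh5 were Wdr82 (0.89), Zdhhc5 (0.87) and Traf4 (0.86), and the closest to Ythdf2 were Foxn2 (0.94), Fem1c (0.91) and Edc3 (0.90). Within the pathway Ythdf2 was closest to Ythdf1 (0.73) and Wtap (0.72), Mettl3 was closer to Alkbh5 (0.65) than to its partner Mettl14 (0.16), and Fto ran against all 3 (-0.35 to -0.52).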

How the data were processed

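Labelled RNA was followed in 25 libraries, whose labels give cell type, replicate and time point. The authors aligned reads to GRCm38 with HISAT2 2.1.0 and tabulated FPKM over canonical coding transcripts with StringTie 1.3.5. Before deposit the authors scaled the FPKM of each library to 5-EU-labelled spike-in RNA, and transcripts under 1 FPKM at 0 h or at 0 FPKM at 1 and 2 h were left out. A transcript that is not listed for a cell type can have been removed by either filter. The deposited half-lives (in h) were fitted by least absolute deviations and limited to 6 h; those listed just above were set to 6 h here. A refit fell within 0.01 h for at least 98.5% of transcripts in each replicate.

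Levels and slopes were tested with limma 3.58.1 (trend; R 4.3.3) on log2(FPKM + 1), so that fold changes of low genes are understated, and half-lives with limma on log2 h, in each case over all transcripts with Benjamini-Hochberg adjustment at 0.05. In the slope fits the time points of a replicate were treated as independent samples. The scripts were tested on simulated data. Read counts were not recovered, so depth is unknown. Percentiles are ranks within 1 replicate. Genes were matched by symbol, and half-lives by transcript identifier. All 10 genes were named, the 20 other pathway genes were named where they passed a test or were not listed, and the 3 most similar transcripts were named for Mettl3, Alkbh5 and Ythdf2. The genes and lists were chosen with earlier results of these data known. Replicates are the biological replicates of the study. Alternatives were other pseudocounts, filters and scalings, the replicate block, refitted half-lives, and each replicate left out.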

Additional observations from a re-analysis of the deposited data

Results flagged for a closer look

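Results for 2 genes were singled out because their decline over the chase differed between the cell types by a test of the difference itself (limma interaction term). The same test called 27.5% of all transcripts shallower in OLs. Replicate slopes lay above without overlap in OLs for 50.9% of all transcripts, so such a difference does not set the 2 genes apart. The slope of Mettl3 was shallower in OLs by 0.43 ± 0.13 log2 units per h (SE, adjusted p = 0.0113), in 2 of 2 OL replicates against all 3 OPC replicates, and that of Alkbh5 by 0.21 ± 0.08 (adjusted p = 0.0381), also in 2 of 2 against 3. The difference for Alkbh5 was -0.03 with each library set to its 0 h median, and that for Mettl3 was 0.52. Neither passed without OL replicate 1 (0.0974 for Mettl3 and 0.166 for Alkbh5) or without OL replicate 2 (0.0838 and 0.150), and Alkbh5 did not without OPC replicate 2 (0.212). No group had the 4 samples needed to look for samples that stand apart.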

How the results depend on the processing

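Of the 9 genes tested for the 0 h level, 3 passed, and between 0 and 4 did with 1 OPC replicate left out. Of the 9 slopes in OPCs, all passed, against 3 with each library set to its 0 h median. The slope difference passed for 2 genes, and for 1 to 2 with 1 OPC replicate left out. How many of all transcripts passed in these reduced fits was not counted. Of the shares left at 6 h, 4 did not overlap between the cell types, against 7 at 4 h (all with OLs above) and 4 to 7 with 1 replicate left out (4 to 6 with OLs above and 0 to 3 below). Of all transcripts, 48.7% lay above and 3.28% below in OLs at 4 h, and 52.9% to 64.2% above and 3.66% to 8.4% below with 1 replicate left out. The half-life passed for 0 genes under all 11 alternatives.

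Some differences changed sign. With each library set to its 0 h median, the slope of Fto was 0.27 in OPCs and 0.0304 in OLs, and the slope difference was -0.20 for Wtap, -0.0258 for Alkbh5, -0.0576 for Virma, -0.18 for Ythdf3 and -0.17 for Ythdf2. For Fto the slope difference was 0.00658 with a pseudocount of 0.1 and 0.11 without the 6 h libraries. Centred on the library median, the 0 h difference for Virma was -0.0299, and with the replicate block it was -0.0454. Centred on the replicate median, the log2 half-life difference was -0.60 for Ythdf1, -0.63 for Alkbh5, -0.83 for Fto, -0.65 for Virma and -0.74 for Ythdf2. Refitted on the mean decay curve it was -0.0914 for Alkbh5, -0.34 for Fto and -0.23 for Virma, refitted without the 6 h libraries it was -0.42 for Virma, and with the replicate block it was -0.00741 for Fto. Divided by the library median, the difference in share at 6 h was -46.2, -23.3, -19.1 and -20.6 points for Wtap, Virma, Alkbh5 and Ythdf1, and at 4 h in place of 6 h it was 2.89, 18.6, 17.7 and 12.1 points for Mettl14, Fto, Ythdf2 and Ythdf3. With 1 replicate left out, the 0 h difference ranged from -0.135 to 0.0471 for Ythdf1 and from -0.0920 to 0.0959 for Virma, the slope difference from -0.0738 to 0.144 for Wtap and from -0.0354 to 0.0342 for Fto, the half-life difference from -0.0845 to 0.620 for Alkbh5, from -0.32 to 0.47 for Fto, from -0.48 to 0.16 for Ythdf3 and from -0.54 to 0.87 for Ythdf2, and the share from -4.65 to 9.13 points for Wtap, from -5.74 to 5.03 for Ythdf2 and from -2.91 to 2.28 for Ythdf3. Without the 6 h libraries the slope was -0.84 for Wtap, -1.01 for Ythdf1 and -0.82 for Ythdf2 in OPCs and -0.80 for Wtap in OLs, more than 1.5 times the values with all libraries. With limma without a trend the 0 h call of Ythdf3 was lost (adjusted p = 0.0652). The cause of these changes was not tested.

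Whether the replicate numbers pair the samples could not be settled, since with 2 OL replicates the deviations from their mean are mirror images. Same-numbered OPC and OL replicates had correlations of 0.0589 and 0.0102 between their deviations in 0 h level and of -0.00162 and -0.105 in half-life, while at 1 h the median share left was 67.9% and 64.0% in replicate 1 of OPCs and OLs and 95.3% and 95.5% in replicate 2. With the replicate number as a block the counts of genes that passed were 3 for the level, 9 and 10 for the slopes, 2 for the slope difference and 0 for the half-life. With 3 replicates against 2, half-life differences had an SE of 0.18 to 0.73 on the log2 scale, and depth is unknown.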

Other observations

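A single value recurs among the deposited half-lives. The value of 1.96 h was held by 182, 2174 and 631 of the 8491 half-lives in OPC replicates 1, 2 and 3 and by 46 and 134 of the 9698 in OL replicates 1 and 2. In OPC replicate 2 this is 25.6% of the table, against 2.14% and 7.43% in the other OPC replicates and 0.474% and 1.38% in OLs. All of these transcripts lay above the fitted curve at 1 and 2 h and below it at 4 and 6 h. For such a course the least absolute deviations estimate depends only on the side on which each point lies, and transcripts that fell by different amounts receive the same half-life.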
